A study of Rattus norvegicus with 8 samples.

Results

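The cytosolic ribosomal protein genes encode the protein parts of the ribosomes that translate nuclear messages in the cytoplasm. They were taken as the genes with a probe set of 1 symbol on the rat genome array whose symbol begins with Rpl or Rps and a number, together with Rplp0 and Rpsa. The Rps6k kinases and pseudogenes were left out. This gave 48 genes out of 14217 with such a probe set. By role they were 13 of 31 listed small subunit proteins, 28 of 43 large subunit proteins, 1 of 3 stalk proteins (Rplp0) and 6 paralogues, which are second gene copies such as Rps27l. The other listed genes had only probe sets that carry several symbols, or were not analysed here. Rplp1 was on such a shared probe set, and Rplp2 and Rpl22l1 were not analysed here.

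A ribosome has a small subunit, which reads the message, and a large subunit, which joins the amino acids and passes the chain through its exit tunnel. The stalk of the large subunit recruits the elongation factors. Most messages for ribosomal proteins begin with a C followed by an uninterrupted run of pyrimidines, the TOP motif, through which mTORC1 signalling controls their translation. In neurons ribosomes lie in the cell body and in dendrites, and protein synthesis after training is needed for lasting fear memory.

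RNA came from the basolateral amygdala of rats (its lateral and basal nuclei), collected by laser microdissection ipsilaterally. Control rats had surgery and no stimulation, and epileptogenic rats had electrical stimulation of the amygdala, went into status epilepticus and showed no spontaneous seizures up to sampling. All rats were habituated to the chamber and on day 8 were given footshock (1.5 mA for 1 s) and tone (75 dB for 20 s), either as tone ending with shock (paired) or as shock followed by tone (unpaired). Tissue was taken 3 h later. State and training together made 4 groups, each with 2 arrays that carry the letters A or B. An array was hybridised with a pool of amplified RNA from 2 of a group's 4 rats (16 rats in all), and 30 ng of total RNA per rat went through 2 rounds of amplification. No group without tone and shock was analysed here. Within a group the spread between arrays, which the p-values measure, is that between an A pool and a B pool. In a fit that ignores the letters it includes any difference shared by arrays of like letter. The number of arrays limits the precision.

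The values are MAS5 signal intensities, and tests were run on their log2 by limma over 18625 probe sets whose mean log2 signal exceeded 4.35 (a signal of 20.3). Array medians were between 29.0 and 43.2, and pairs of arrays correlated at 0.846 to 0.963. Arrays of like letter deviated together, so each result is also given with the letter as a block where the call changes. The 13 microglia markers averaged a log2 signal of 7.68 to 8.22 on epileptogenic arrays and 5.21 to 6.20 on control arrays. Of the 12 tested, 10 rose (11 with the block, where 7.58% of all probe sets rose). Among these, Cd68 had a mean log2 signal of 4.12 on control arrays, under the filter. It passed through the epileptogenic arrays (8.1). Excitatory neuron markers averaged 5.02 to 5.60 against 6.29 to 6.69, and 2 of 7 tested fell (5 of 7 with the block, which called 8.65% of all probe sets lower). Of the astrocyte markers tested, 3 of 9 rose (4 with the block). For oligodendrocytes 0 of 8 rose (3 with the block) and for endothelium 0 of 8 (1 with the block). For interneurons 1 of 6 fell. Of all probe sets tested, 2.81% rose and 0.827% fell, and 7.58% rose with the block. The log2 difference between the 3′ and 5′ probe sets of beta-actin, a sign of RNA integrity and of amplification, was 3.07 to 4.45 on epileptogenic and 1.87 to 4.42 on control arrays, but 1.87 to 3.63 on A arrays and 3.82 to 4.45 on B arrays. For GAPDH it was 3.09 to 4.19 on epileptogenic and 3.33 to 3.69 on control arrays. The highest GAPDH values, 4.00 and 4.19, were those of the epileptogenic A arrays.

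The sequences around the RefSeq start sites are shown for the 9 members called in either fit described further on (Rplp0 and Rpl7a in both, the rest only with the letter as a block) and for the 4 with the lowest differences, since the TOP motif lies there. Each window has 15 bases on either side of the boundary before the annotated first base in GRCr8, read 5′ to 3′ on the gene's strand. The search looked for a C within 10 bases of that boundary followed by at least 4 pyrimidines (C or T). Capitals mark the longest such stretch from its C on; shorter stretches, and pyrimidines farther upstream, are in lower case. The windows are given for Rplp0 (chr12:46718376-46718405, minus strand), Rpl7a (chr3:30637121-30637150, plus), Rpl22 (chr5:168117946-168117975, plus), Rpl12 (chr3:36661925-36661954, plus) and Rpl5 (chr14:1995211-1995240, minus). Then follow Rpl19 (chr10:83519049-83519078, plus), Rpl26 (chr10:54109677-54109706, plus), Rps16 (chr1:92770643-92770672, plus) and Rps27l (chr8:76443643-76443672, plus). The low end is Rpl39 (chrX:121195882-121195911, minus), Rps15a (chr1:181860270-181860299, minus), Rpl26l1 (chr10:17029014-17029043, minus) and Rps13 (chr1:180009646-180009675, minus).
Rplp0: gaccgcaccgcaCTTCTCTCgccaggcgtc
Rpl7a: ctctcctccagccgagcaagatggtgagtg
Rpl22: gtagtgcgCCCCCCTCCCTTTCTgcctcct
Rpl12: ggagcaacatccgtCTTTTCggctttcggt
Rpl5: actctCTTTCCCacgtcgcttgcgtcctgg
Rpl19: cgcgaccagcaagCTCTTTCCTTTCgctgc
Rpl26: ctcgtgtcaacttacagaaccggaagtcgc
Rps16: cctggaaaatcggtcggggtggccccaagc
Rps27l: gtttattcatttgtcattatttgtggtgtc
Rpl39: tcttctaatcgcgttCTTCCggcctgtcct
Rps15a: cggcgttttCTTTCCacagtcaccatggtg
Rpl26l1: aaatgtcatttccgggcctgcgcacacacc
Rps13: gccgtttcctacctcgttCTCTCTTTgctt

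Of the 41 members with a start window in the RefSeq table, 26 (63.4%) held such a run, against 27.7% of all 27457 windows. Runs of at least 8 bases stood in 18 members (43.9%) and in 7.03% of all windows. A window without a run, as for Rpl7a, Rpl26, Rps16, Rps27l and Rpl26l1, says only that this search found none within its reach. The Rpl7a window opens with a stretch of pyrimidines that begins with a C beyond that reach, and Rpl7a is counted as without a run. The median log2 difference between epileptogenic and control arrays was 0.28 over the 24 tested members with a run and 0.34 over the 13 without, a description with no test.

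Of the 48 members, 43 passed the filter on low signals and were tested. The other 5 were Rpl28, Rpl30, Rpl3l, Rpl39l1 and Rps4y2, whose signals lay between 0.653 and 46.2. Rpl3l is the muscle form of Rpl3, and Rps4y2 and Rpl39l1 are copies of Rps4 and Rpl39. The mean log2 signal of a member ran from 1.61 to 12.8. Among small subunit genes the probe set of Rps13 was the dimmest (6.29) and that of Rps23, a protein of the decoding centre, the brightest (12.8). Among large subunit genes these were Rpl30 (3.67) and Rpl3 (12.5), a protein near the site of peptide bond formation. These levels depend on each probe set and do not rank the genes.

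The first comparison asked how the ribosomal protein messages differed in the amygdala after status epilepticus, over both kinds of training. Rplp0 and Rpl7a rose about 2.01-fold and 2.06-fold, and no member fell. The rest were shifted a little the same way: 39 of 43 tested members (90.7%) had a higher mean on epileptogenic arrays, against 39.8% of all probe sets tested. The median log2 difference was 0.29 over the members (quartiles 0.15 and 0.42) and -0.11 over all probe sets (quartiles -0.40 and 0.21). In this fit each of the 43 lay above the median of all probe sets. A lower or higher signal in bulk tissue cannot tell fewer or more cells of a type apart from less or more RNA per cell.

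By the test, 2 of 43 members rose, where 2.81% of all probe sets did, and 0 fell, where 0.827% of all did. At an unadjusted p under 0.05 there were 11 members (25.6%), against 18.4% of all probe sets. With the letter as a block 9 members rose, where 7.58% of all probe sets did: Rplp0, Rpl7a, Rpl5, Rpl12, Rpl19, Rpl22, Rpl26, Rps16 and Rps27l. In 8 of 43 the 4 epileptogenic arrays all lay above the 4 control arrays, against 7.29% of all probe sets, and in 0 of 43 they all lay below, against 7.77%. Probe sets that were not ribosomal and had a mean log2 signal in the members' quartile range, 8.70 to 10.6, had a median difference of -0.12 (2349 probe sets, 38.2% of them positive).

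**Figure D1:**
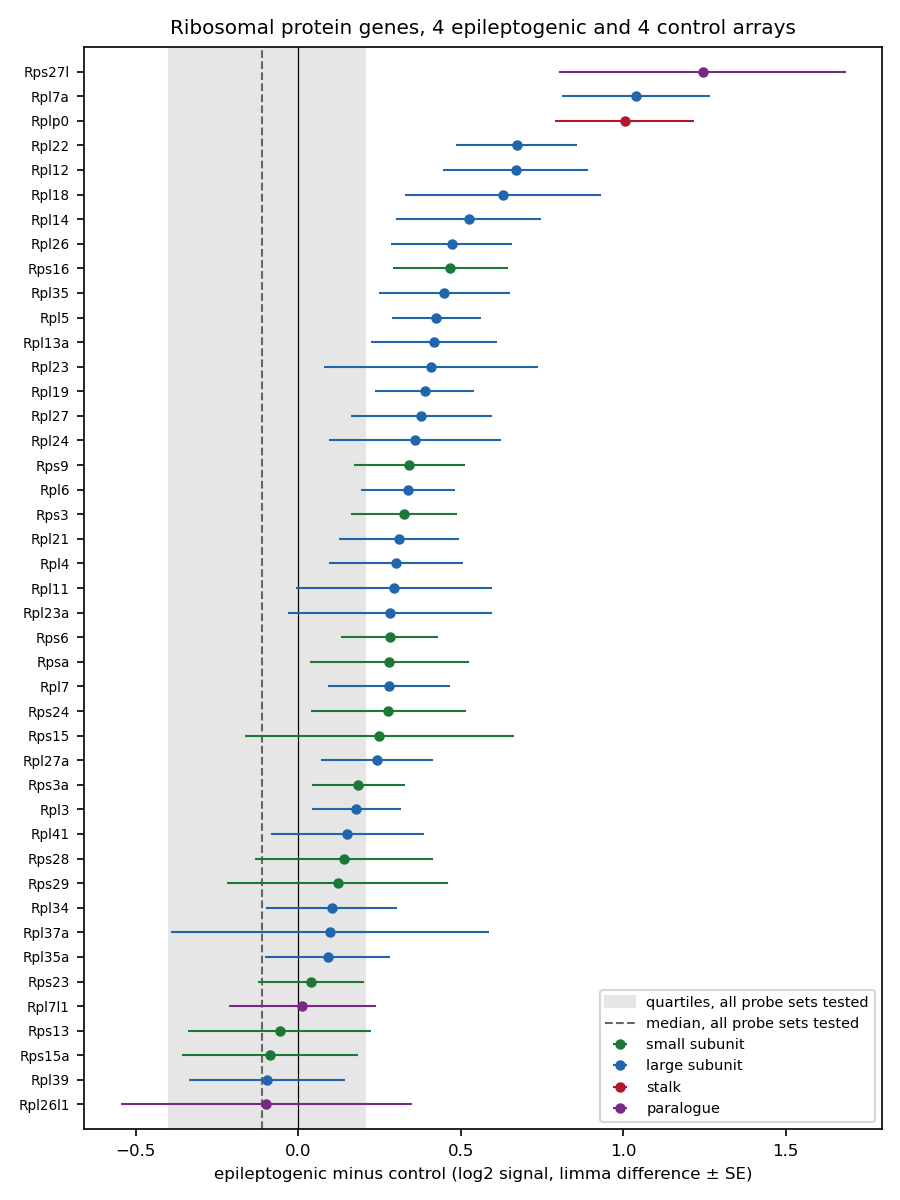
Log2 difference between epileptogenic and control arrays for the 43 tested ribosomal protein genes, with the standard error of the limma fit (4 arrays against 4). Colours give the role of the gene, and the dashed line and grey band give the median (-0.11) and quartiles of all probe sets tested. All points lie to the right of the dashed line, and 39 lie above 0.

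Rplp0 encodes the stalk protein that anchors the P1 and P2 dimers on the large subunit. Its signals were 326 and 293 in the control unpaired group (A and B), 462 and 290 in the control paired group, 714 and 819 in the epileptogenic unpaired group and 693 and 511 in the epileptogenic paired group. Every epileptogenic array lay above every control array. The mean log2 signal was 9.40 ± 0.29 (SD, n = 4) against 8.39 ± 0.31 (n = 4), a difference of 1.00 ± 0.21 (SE), with a limma adjusted p of 0.0369 (0.00294 in the blocked fit). Leaving out each array in turn gave a difference of 0.84 to 1.17 and an adjusted p of 0.0509 to 0.125, so the call was lost in each of the 8 fits. Within letter A the difference was 0.86 (limma adjusted p = 0.0607) and within letter B 1.15 (adjusted p = 0.0199).

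Rpl7a, a large subunit protein, showed signals of 1607 and 1903 in the control unpaired group and 1705 and 1273 in the control paired group. In the epileptogenic groups they were 4340 and 2994 after unpaired and 4037 and 2262 after paired training. The groups did not overlap, and the A arrays were the highest of the epileptogenic arrays. The difference in log2 signal was 1.04 ± 0.23 (SE), from 10.65 ± 0.24 to 11.69 ± 0.43 (SD, n = 4 each), with a limma adjusted p of 0.0407 (0.00265 in the blocked fit). It was 0.83 to 1.25 with each array left out in turn, and was called in 1 of the 8 fits, the one without the epileptogenic paired B array, where the adjusted p was 0.0283. Within letter A the difference was 1.34 (limma adjusted p = 0.00890) and within letter B 0.74 (adjusted p = 0.0758).

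Rpl22, an RNA-binding protein of the large subunit that some cells can do without, came next in size among the subunit genes. Its signals were 1064, 1058, 1141 and 1590 on control arrays and 2099, 1535, 1819 and 2246 on epileptogenic arrays. The highest control array, paired B, lay just above the lowest epileptogenic array, unpaired B. The log2 difference was 0.67 ± 0.19 (SE), with a limma adjusted p of 0.0890 that passed with the block (0.0157).

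Rpl12 sits at the base of the stalk beside Rplp0. Its signals were 315, 256, 371 and 266 on control arrays, and 615, 563, 488 and 300 on epileptogenic arrays. The epileptogenic paired B array lay within the control range, and the other 3 lay above it. The difference was 0.67 ± 0.22 (limma adjusted p = 0.149, and 0.0115 with the block).

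Rpl5 binds the 5S ribosomal RNA and, when ribosome assembly is disturbed, the p53 regulator Mdm2. Control signals were 4129, 4292, 3551 and 3923, and epileptogenic signals 5439, 5330, 5703 and 4845. The groups did not overlap, and the difference was 0.42 ± 0.14 in log2 signal, 1.34-fold (limma adjusted p = 0.135, and 0.0205 with the block). Its partner in that particle, Rpl11, differed by 0.29 ± 0.30 (adjusted p = 0.656), and its signals separated by letter, as shown further on.

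Rpl19, which forms a bridge between the subunits, and Rpl26, which lies near the exit tunnel, also had every epileptogenic array above every control array. Rpl19 read 2668, 2273, 2424 and 2643 on control arrays and 3431, 3018, 3664 and 3009 on epileptogenic arrays, a difference of 0.39 ± 0.15 (limma adjusted p = 0.211, and 0.0362 with the block). Rpl26 read 910 to 1003 on control and 1116 to 1695 on epileptogenic arrays, a difference of 0.47 ± 0.19 (adjusted p = 0.213, and 0.0302 with the block). Rpl6 did not overlap either, with a difference of 0.34 ± 0.14 (adjusted p = 0.255, and 0.0514 with the block). Of 26 large subunit genes tested, 1 rose (3.85%, against 2.81% of all probe sets) and with the block 6 did (7.58% of all). Of the 26, 25 had a positive difference, and the median was 0.35.

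Of 13 small subunit genes, 0 rose by the test and 1 with the block (2.81% and 7.58% of all probe sets), 11 had a positive difference and the median was 0.25. The member with the block call was Rps16, a protein near the decoding site, with signals of 693, 810, 645 and 856 on control arrays and 1019, 966, 1170 and 985 on epileptogenic arrays. The groups did not overlap, and the difference was 0.47 ± 0.18 (limma adjusted p = 0.191, and 0.0424 with the block). Rps9 also did not overlap, with a difference of 0.34 ± 0.17 (adjusted p = 0.329). The test did not compare the small with the large subunit.

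Rps6 is the substrate of the S6 kinases and its phosphorylation is widely used as a mark of active neurons. It read 3005, 2646, 2435 and 2750 on control arrays and 2977, 3678, 3259 and 3256 on epileptogenic arrays. The highest control array, unpaired A, lay above the lowest epileptogenic array, also unpaired A. The difference was 0.28 ± 0.15 (limma adjusted p = 0.356). Rpsa, also known as the laminin receptor, differed by 0.28 ± 0.25 (adjusted p = 0.596), and its 2 other probe sets by 0.18 and 0.43.

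Rps27l, a copy of Rps27 that p53 induces, had the largest difference of the 43, on a dim probe set. It read 46.3, 23.3, 16.2 and 17.5 on control arrays and 84.7, 49.5, 84.6 and 27.1 on epileptogenic arrays. The control unpaired A array lay above the epileptogenic paired B array, and 2 control values lay under the filter level of 20.3. The difference was 1.24 ± 0.44 (limma adjusted p = 0.170, and 0.0315 with the block). The other tested paralogues differed by 0.01 ± 0.23 (Rpl7l1) and -0.10 ± 0.45 (Rpl26l1), the latter of positive sign with each array centred on its median.

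**Figure D2:**
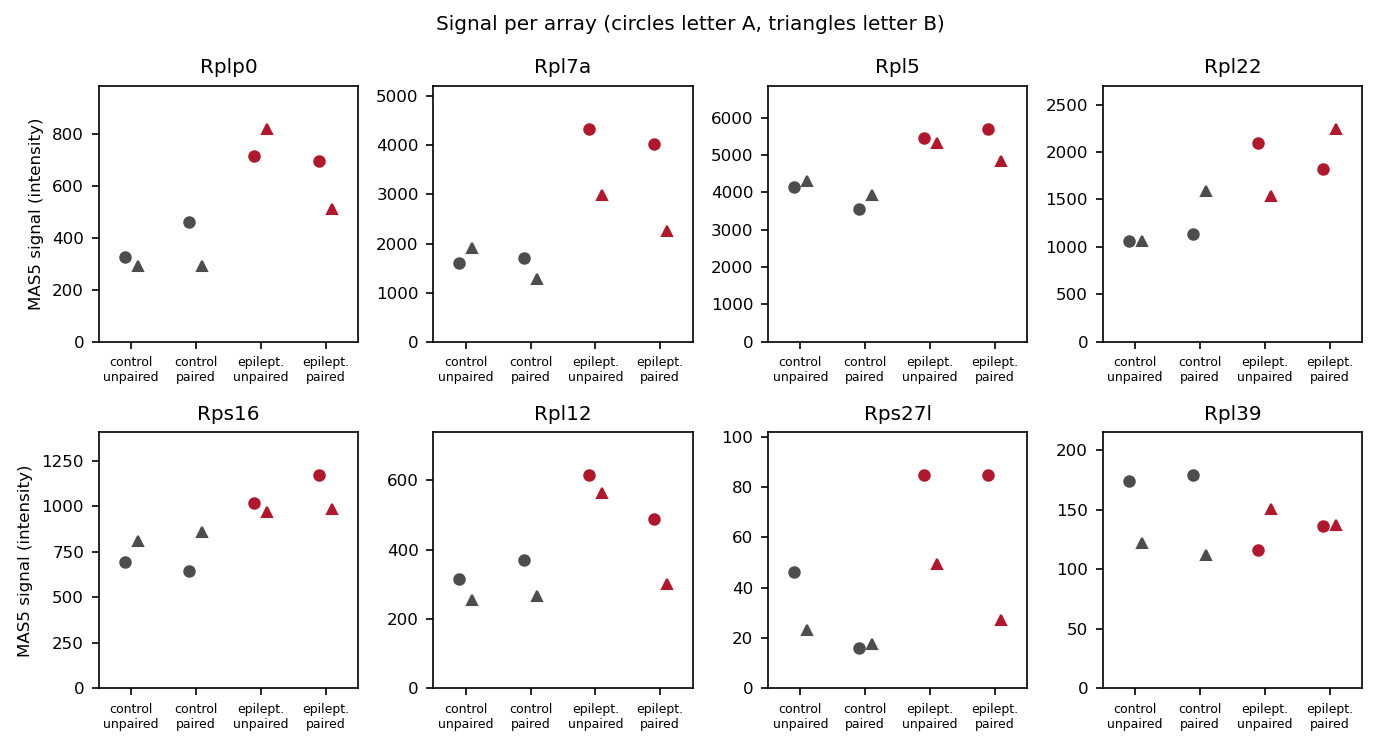
MAS5 signal of 8 ribosomal protein genes on each of the 8 arrays, by group, on linear axes from 0, with circles for letter A, triangles for letter B, grey for control and red for epileptogenic. Rplp0, Rpl7a, Rpl5 and Rps16 show no overlap between states, and Rpl39 is at the low end of the differences.

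At the low end stood Rpl39, Rps15a and Rps13 beside Rpl26l1. Rpl39, a very small protein in the wall of the exit tunnel, read 174, 122, 179 and 112 on control arrays and 116, 151, 136 and 137 on epileptogenic arrays. The epileptogenic arrays lay inside the control range, and the difference was -0.10 ± 0.24 (limma adjusted p = 0.877). Rps15a and Rps13, both small subunit proteins, differed by -0.09 ± 0.27 and -0.06 ± 0.28. All 3 took a positive sign with each array centred on its median, a step that moved the median of all probe sets from -0.11 to -0.0050.

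Scaling moved the members and all probe sets together. The members' median was 0.35 after quantile normalization, when that of all probe sets was -0.05, and 0.40 after median centring, when 43 of 43 differences were positive. In these settings Rplp0 and Rpl7a were again the 2 called; without the filter only Rplp0 was, and without an intensity trend in the prior variance 0 were. Of all probe sets called, 77.3% were higher as deposited (523 higher, 154 lower), 96.9% after median centring (377 and 12) and 46.7% with the block (1411 and 1611). With single arrays left out the members' median was 0.20 to 0.43 and 33 to 41 members were positive. Within letter A the median was 0.44 and 4 members rose (Rpl7a, Rpl14, Rpl18 and Rpl22), where 2.43% of all probe sets did. Within letter B it was 0.20 and 1 rose (Rplp0), where 4.46% of all did.

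A further 36 probe sets carried several symbols, 1 or more of them of this family, and are not assigned to a gene. Of 35 tested, 1 rose (2.86%, against 2.81% of all probe sets) and 8 did with the block (7.58% of all). Of the 35, 31 had a positive difference and the median was 0.32. Of the 6 members with more than 1 probe set, 5 had differences of the same sign on each. Examples are Rpl7 with 0.28 and 0.62, and Rps24 with 0.28 and 0.56. The exception was Rpl7l1 with 0.01 and -0.10. Ribosomal protein genes have many processed pseudogenes and a probe set may also read those.

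Taken separately by training, the epileptogenic arrays were compared as 2 against 2. After unpaired training 0 of 43 members rose (0.290% of all probe sets), 6 (14.0%) had an unadjusted p under 0.05, against 12.5% of all, and the median difference was 0.30. After paired training 0 of 43 rose (0.521% of all), 5 (11.6%) had an unadjusted p under 0.05, against 9.92% of all, and the median was 0.27. With the block 3 rose after unpaired training, where 3.40% of all probe sets did: Rplp0 by 1.31, Rpl12 by 1.05 and Rpl7a by 1.04. After paired training 1 rose, where 3.45% did: Rpl7a, again by 1.04. Rplp0 differed by 0.70 ± 0.30 and Rpl12 by 0.29 ± 0.32 after paired training, with limma adjusted p of 0.480 and 0.856. That a call was made after one training and not the other is no test of the difference, which follows.

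The interaction asked whether paired training changed these messages otherwise in epileptogenic than in control rats. It passed for 0 of 43 members, as for 0% of all probe sets, and 0 members had an unadjusted p under 0.05, against 1.47% of all. With the block there were 4 (9.30%), against 5.67% of all, and 0 passed after adjustment. The median over the members was 0.03. Relative to their standard errors, the most negative were Rpl12 at -0.76 ± 0.45, Rplp0 at -0.60 ± 0.43 and Rps9 at -0.48 ± 0.34. The most positive on that measure were Rps28 at 1.18 ± 0.55, Rps29 at 1.03 ± 0.68 and Rpl35 at 0.40 ± 0.40. Some less precise members had larger values, such as Rpl26l1 at -0.65 ± 0.90 and Rps27l at 0.53 ± 0.88. Rps28 and Rps29 are among the smallest proteins of the small subunit. Rps28 read 233 and 460 (control unpaired), 207 and 248 (control paired), 184 and 313 (epileptogenic unpaired) and 343 and 413 (epileptogenic paired). In epileptogenic rats both paired arrays lay above both unpaired arrays, while in control rats the unpaired A array lay between the paired arrays.

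Paired against unpaired training, over both states, called 0 of 43 members and 0% of all probe sets. At an unadjusted p under 0.05 there were 0 members, against 1.15% of all. With the block there were 2 (4.65%), against 3.92% of all, 0 passed after adjustment, and the median difference was -0.01. Relative to their standard errors, the most negative were -0.70 ± 0.44 for Rps27l, -0.37 ± 0.23 for Rpl7l1, a copy of Rpl7 that acts in assembly of the large subunit, and -0.30 ± 0.16 for Rps3, a protein at the entry of the message. Rpl37a, at -0.47 ± 0.49, was less precise. The most positive on the same measure were 0.26 ± 0.19 for Rpl22, 0.13 ± 0.18 for Rpl21 and 0.11 ± 0.19 for Rpl13a, a protein that also silences inflammatory messages once released from the ribosome. In control rats alone 0 of 43 were called, where 0% of all probe sets were, and 0 had an unadjusted p under 0.05 (2 with the block, 4.65% against 4.93% of all). In epileptogenic rats alone 0 were called, where 0% of all were, and 0 had an unadjusted p under 0.05 (3 with the block, 6.98% against 5.01% of all). With 2 arrays a group, a difference that was not called may still exist.

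Some members differed between the letters. In the fit with the block 8 of 43 members were higher on A arrays, where 8.09% of all probe sets were, and 2 were lower, where 9.43% were. The labels do not say what the letters stand for. Rpl37a, a small zinc-binding protein of the large subunit, read 2484, 1710, 2588 and 2771 on A arrays and 1222, 777, 1133 and 651 on B arrays. All A arrays lay above all B arrays, with a difference of 1.36 ± 0.17 (limma adjusted p = 0.00230), while its difference by state was 0.10 ± 0.49. Rpl11 read 1639, 1431, 1861 and 2153 on A arrays and 930, 962, 1097 and 1081 on B arrays. Here too the letters did not overlap, and the difference was 0.79 ± 0.11 (adjusted p = 0.00359).

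The other members higher on A arrays were Rps15 (1.04 ± 0.20), Rpl26l1 (1.01 ± 0.29), Rpl23 (0.81 ± 0.16), Rps29 (0.80 ± 0.18), Rpl23a (0.76 ± 0.16) and Rpsa (0.56 ± 0.12). Rpl23a lies at the mouth of the exit tunnel. Rpl4, which lines the tunnel, was lower on A arrays by -0.42 ± 0.11 and Rps28 by -0.57 ± 0.16. None of these 10 was among the 9 that rose with state in the same fit, which with counts this small is no test. A member not called by letter may still differ by it. Rps27l read 46.3, 16.2, 84.7 and 84.6 on A arrays and 23.3, 17.5, 49.5 and 27.1 on B arrays. The 3′ to 5′ difference of beta-actin was higher on B arrays without overlap, as given above. That of GAPDH overlapped and leaned the other way, at 3.35 to 4.19 on A and 3.09 to 3.69 on B arrays. Their part in the differences by letter was not tested.

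**Figure D3:**
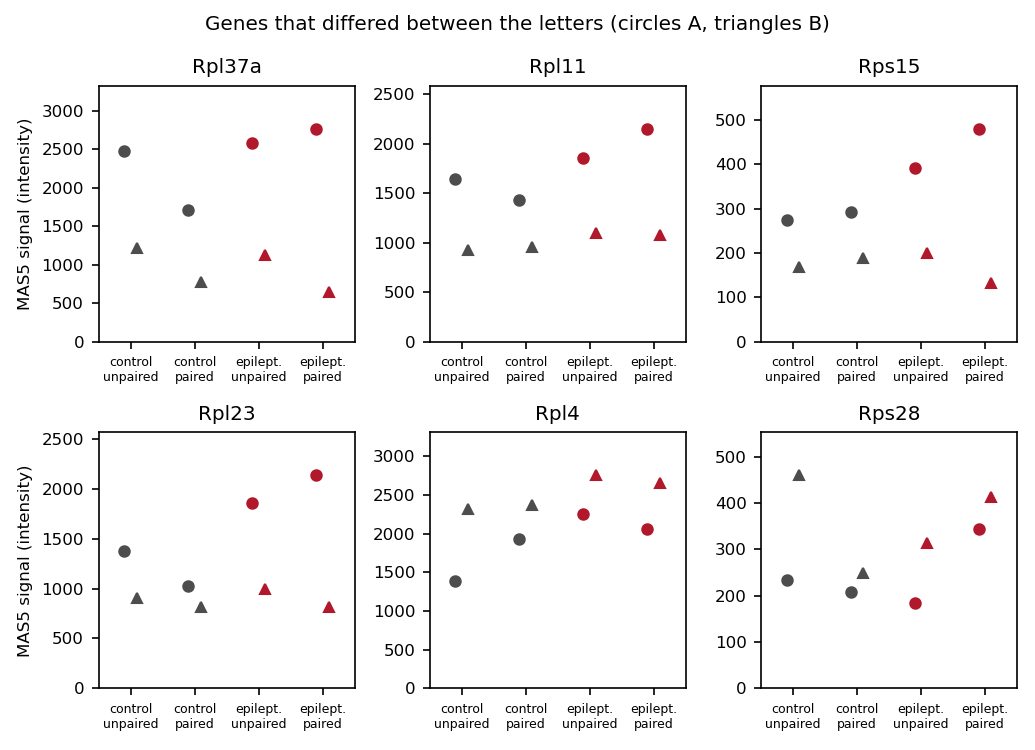
MAS5 signal of 6 ribosomal protein genes that differed between letters A (circles) and B (triangles), by group, on linear axes from 0, with grey for control and red for epileptogenic. Rpl37a, Rpl11, Rps15 and Rpl23 are higher on A arrays, and Rpl4 and Rps28 are lower.

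**Figure D4:**
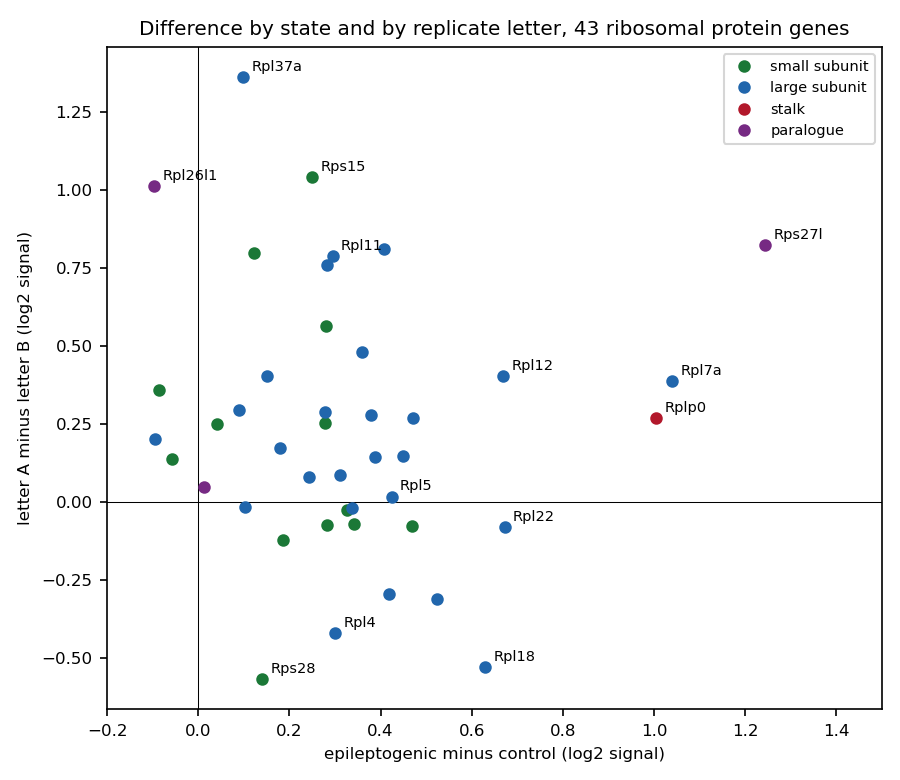
Log2 difference by state (epileptogenic minus control, horizontal) against log2 difference by letter (A minus B, vertical) for the 43 tested ribosomal protein genes, coloured by role. Rpl37a lies at 1.36 on the letter axis and near 0 by state, and Rplp0 and Rpl7a lie near 1.0 by state.

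The other genes of the translation machinery give the setting. Of all probe sets tested, 2.81% rose and 0.827% fell, or 7.58% and 8.65% with the block. Of 71 tested genes for mitochondrial ribosomal proteins, which build a separate ribosome for the mitochondrial genome, 0 rose and 0 fell (1 rose with the block). Their median difference between epileptogenic and control arrays was -0.11, beside -0.11 for all probe sets, and 21 of 71 were positive. The smallest p among them was that of Mrps6, with 0.57 ± 0.21 (limma adjusted p = 0.188, and 0.0334 with the block), followed by Mrpl52 with 1.56 ± 0.63 (adjusted p = 0.227). The Mrpl52 probe set was dim, with control signals of 12.1, 12.4, 89.7 and 8.80. Its mean log2 signal was 4.21 on control arrays, under the filter of 4.35, and it passed through the epileptogenic arrays (5.77). The 2 families' medians were not tested against each other.

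Of 9 genes listed with the elongation factors, which include the kinase Eef2k, 1 rose (2.81% of all probe sets did). It was Eef1a1, which brings aminoacyl-tRNA to the ribosome. It read 2886 to 3187 on control arrays and 4423 to 4953 on epileptogenic arrays. The groups did not overlap, and the difference was 0.60 ± 0.14 (limma adjusted p = 0.0440). With the block Eef1d, Eef1g and Eef2k were also called, where 7.58% of all probe sets rose. The median over the 9 was 0.20, with 7 positive, while Eef1a2, the form of Eef1a1 found in neurons and muscle, stood at -0.82 ± 0.49 (adjusted p = 0.413). The Eef1a2 probe set was dim, near the filter level of 20.3. It read 7.40, 26.0, 48.1 and 21.8 on epileptogenic arrays and 25.6 to 46.6 on control arrays. Rack1, a scaffold on the small subunit, differed by 0.52 ± 0.15 (adjusted p = 0.108, and 0.0119 with the block).

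Of 12 other genes with TOP messages, 11 had a positive difference and the median was 0.28. All but Naca (0.21), Nap1l1 (0.06) and Hnrnpa1 (-0.10) also stand in the elongation factor, initiation factor or Rack1 lists. The 1 that rose was Eef1a1, where 2.81% of all probe sets rose. The 4 with the block were Eef1a1, Eef1d, Eef1g and Rack1, already given above, where 7.58% of all rose. Of 32 initiation factor genes 0 rose and 0 fell by either fit, 20 were positive and the median was 0.08; the smallest p was that of Eif3f, at 0.36 ± 0.17 (limma adjusted p = 0.293). Of 45 genes for ribosome assembly 0 were called, 21 were positive and the median was -0.02. Among these Nolc1, a nucleolar protein, stood at -0.47 ± 0.20 (limma adjusted p = 0.262). With the block Nop56, a core protein of box C/D RNA particles, fell by 0.61, where 8.65% of all probe sets fell. Its limma adjusted p was 0.0324 with the block and 0.399 without. Nop56 read 1334 and 1106 on control A arrays, 550 and 497 on control B arrays, and 387 to 664 on epileptogenic arrays. Of 19 genes of mTORC1 and S6 kinase signalling 0 were called, 9 were positive and the median was -0.10. With the block 2 rose (10.5%, against 7.58% of all probe sets). They were Eef2k, the kinase that slows elongation, and Eif4ebp2, an inhibitor of initiation. Eef2k differed by 0.88 ± 0.33 without the block (limma adjusted p = 0.187, and 0.0304 with the block). It read 95.2, 239, 110 and 120 on epileptogenic and 47.2 to 86.5 on control arrays. Eif4ebp2 differed by 0.67 ± 0.25 without the block (limma adjusted p = 0.1925, and 0.0479 with the block). Its control unpaired B array (218) lay above its epileptogenic unpaired A array (204). Eef2k was also counted above with the elongation factors.

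Over single arrays, the mean log2 signal of the 43 tested members was 9.51, 9.36, 9.42 and 9.35 on control arrays and 9.89, 9.65, 9.97 and 9.46 on epileptogenic arrays. The epileptogenic paired B array, at 9.46, lay below the control unpaired A array, at 9.51, and the other 3 epileptogenic arrays lay above all control arrays. The median of all probe sets tested was 6.41 to 6.61 on control and 6.47 to 6.54 on epileptogenic arrays. On all 4 epileptogenic arrays microglia markers (7.68 to 8.22 against 5.21 to 6.20) were higher than on any control array. So were astrocyte markers (9.78 to 10.1 against 8.94 to 9.62) and endothelial markers (7.15 to 7.50 against 6.75 to 7.05). Excitatory neuron markers were lower without overlap. Oligodendrocyte markers overlapped (8.76 to 9.84 against 8.17 to 8.89), with 8 of 8 tested positive. Of the astrocyte markers Gfap (2.83), Vim (2.10) and Aqp4 (0.84) differed most, and the rest ran from -0.15 to 0.61. GAPDH 3′ to 5′ differences were highest on the epileptogenic A arrays (4.00 and 4.19), which had the highest member means. Those of beta-actin there, 3.63 and 3.07, lay within the control range. The part of these markers and measures in the members' shift was not tested.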

How the data were processed

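The deposited values are signal intensities of Rat 230 2.0 probe sets, made by the authors with MAS5 per the submitters' processing notes; version and scaling target are not given in the sources used here. Signals were put on a log2 scale without further normalization. Of 31042 probe sets (57 controls left out), 18625 lay above the 40th percentile of mean log2 signal. limma 3.58.1 (R 4.3.3) fitted 4 group means with an intensity trend, two-sided, with Benjamini-Hochberg adjustment over all 18625 at 0.05. The fit was run on simulated data with independent noise, no letter effect and added differences larger than those of the members. That run does not cover differences of the members' size or arrays that deviate together. Figures used matplotlib 3.10.9 in Python 3.11.15.

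Where a gene had several probe sets, the one of highest mean log2 signal was used. Names come from the platform annotation, and 46 of 48 members matched RefSeq; Rpl37a and Rps9 kept the annotation's name. The accession listed for the Rpl13a probe set belongs to Hk3 in RefSeq while its gene ID is that of Rpl13a. Start windows are RefSeq's, on GRCr8. Of the genes considered, 7 kinase genes and 2 pseudogene probe sets were left out, and 436 probe sets with several symbols were not named.

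Same-lettered arrays' deviations from group means correlated at 0.321 to 0.407 in all 6 pairs of groups, so the letters were taken as pairing from the data; the labels do not explain them. Within-letter values come from a limma fit to that letter's 4 arrays, 2 of each state. Genes named were Rplp0, Rpsa, Rps6 and Rps27l, every member called, those with the most extreme moderated t (8 high and 4 low by state, 3 and 3 by training and interaction), each subunit's dimmest and brightest, and the called or lowest-p genes of other lists; further names were chosen after their values were seen. The members and lists were chosen with earlier results of these data known. Alternatives were other scalings, an offset of 16, other filters, no trend, array weights, other probe set choices, the block and single arrays left out.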

Additional observations from a re-analysis of the deposited data

How the results depend on the processing

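The number of members that rose between states was 2 and became 9 with the replicate block, that is with the letters taken as pairs. It was 1 without the filter, 0 without the intensity trend, 0 to 1 with single arrays left out, 4 among A arrays, 1 among B arrays, and 1 over the probe sets with several symbols, a choice made after seeing the data. After unpaired training alone it went from 0 to 3 with the replicate block and after paired training from 0 to 1. The counts for training and interaction stayed at 0 under the alternatives run. The 4 lowest members changed sign after median centring (Rpl39 0.0099, Rps15a 0.019, Rpl26l1 0.0075, Rps13 0.048) and 3 of them within letter B (Rpl39 0.30, Rps15a 0.036, Rps13 0.38). With single arrays left out Rpl39 ran from -0.26 to 0.073, Rps15a from -0.32 to 0.14, Rpl26l1 from -0.47 to 0.27 and Rps13 from -0.26 to 0.14; by training, Rpl13a ran from -0.057 to 0.27 and Rpl21 from -0.014 to 0.28. The cause of these changes was not tested. Members at or near the filter level, such as Rps27l, are limited by signal over background.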
